A study of Mus musculus with 4 samples.

Results

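Liver mRNA of 10 genes of lipoprotein remodelling and HDL transport was examined in 4 pooled RNA-seq libraries, VS (vehicle, sedentary), VI (vehicle, interval exercise), FS (fibril, sedentary) and FI (fibril, interval exercise). The genes are Abca1, Abcg5, Abcg8, Scarb1, Lcat, Pltp, Lipc, Lpl, Mttp and Sort1, taken as the rows that carry these gene names among 35275 listed genes. The mice of all groups carried the amyloidogenic Apoa2c allele, which encodes a form of apolipoprotein A-II that deposits as AApoAII amyloid. They were female R1.P1-Apoa2c congenic mice on the SAMR1 background according to the study's methods, whereas the sample labels give the strain as AKR/J with an Apoa2c congenic genotype. Mice of the FS and FI groups received AApoAII fibrils into a vein to induce amyloidosis, and mice of the VS and VI groups received vehicle (PBS). VI and FI mice then ran interval training (IT) on a treadmill for 16 weeks, while VS and FS mice stayed sedentary, and all livers were taken at 26 weeks of age. Because every group carried the allele, the vehicle livers are a control for the injected fibrils and not for the allele. The paper reports less amyloid in the livers of FI than of FS mice. Between FI and FS, IT and a lower amyloid load therefore cannot be told apart. The authors combined liver of 4 mice per group ahead of RNA extraction, which turned 16 mice into 4 libraries and leaves no value with an error between mice.

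Apolipoprotein A-II, the precursor of these fibrils, circulates on HDL, and the liver both makes HDL and takes up its cholesterol. ABCA1 moves cholesterol and phospholipid out of cells onto lipid-poor apolipoproteins, LCAT esterifies that cholesterol in plasma, PLTP and hepatic lipase (Lipc) reshape the particle, and SR-BI (Scarb1) takes up its cholesteryl ester. ABCG5 and ABCG8 form a heterodimer that exports sterols from hepatocytes into bile, MTTP and sortilin (Sort1) act on the assembly and sorting of particles with apolipoprotein B, and lipoprotein lipase (Lpl) hydrolyses the triglyceride of circulating particles.

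The libraries held 23442935 (VS), 24524287 (VI), 28814802 (FS) and 24801185 (FI) counts, and the 10 genes took between 0.156% and 0.206% of them. Levels are given as CPM, counts scaled to a library of 1e+06 with TMM factors, and a gene without any count could still have had 3 counts, or between 0.102 and 0.127 CPM. The 8 hepatocyte markers examined were all expressed, with a summed level between 133000 and 155700 CPM. The VS library stood apart by skeletal muscle transcripts: 13 muscle markers summed to 78.5 CPM (VS), 10.2 (VI), 1.12 (FS) and 1.08 (FI). Markers of Kupffer cells and macrophages, 12 genes, summed to 338 CPM (VS), 411 (VI), 533 (FS) and 533 (FI), and all 12 were higher in FS than in VS and in FI than in VI. The comparisons FI versus FS and FI versus VI do not use the VS library, although VI also held more muscle transcripts than FI. The additive model described below uses all 4 libraries. In such bulk tissue, fewer cells of a type and less RNA per cell cannot be told apart.

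All 10 genes exceeded 1 CPM in every library. On the length-corrected scale of deposited FPKM, the mean over the 4 libraries was highest for Lcat at 519 and lowest for Sort1 at 1.18. Between them came Lipc at 116, Scarb1 at 70.4, Mttp at 60.1, Abcg5 at 50.5, Abcg8 at 44.1, Abca1 at 14.0, Lpl at 4.63 and Pltp at 2.77 FPKM. The levels of Lcat, Lipc and Abca1 over the libraries did not overlap with those of either neighbour in this order, nor did those of Sort1 with those of Pltp. Scarb1 and Mttp overlapped over the libraries, as did Mttp and Abcg5, Abcg5 and Abcg8, and Lpl and Pltp. Lcat, Lipc, Scarb1, Mttp, Abcg5 and Abcg8 had their lowest level in FS, whereas Lpl and Sort1 had their highest level there. Mttp differed little, by 0.18 on the log2 scale over the libraries. The share of all genes with their lowest or highest level in FS was not determined.

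**Figure D1:**
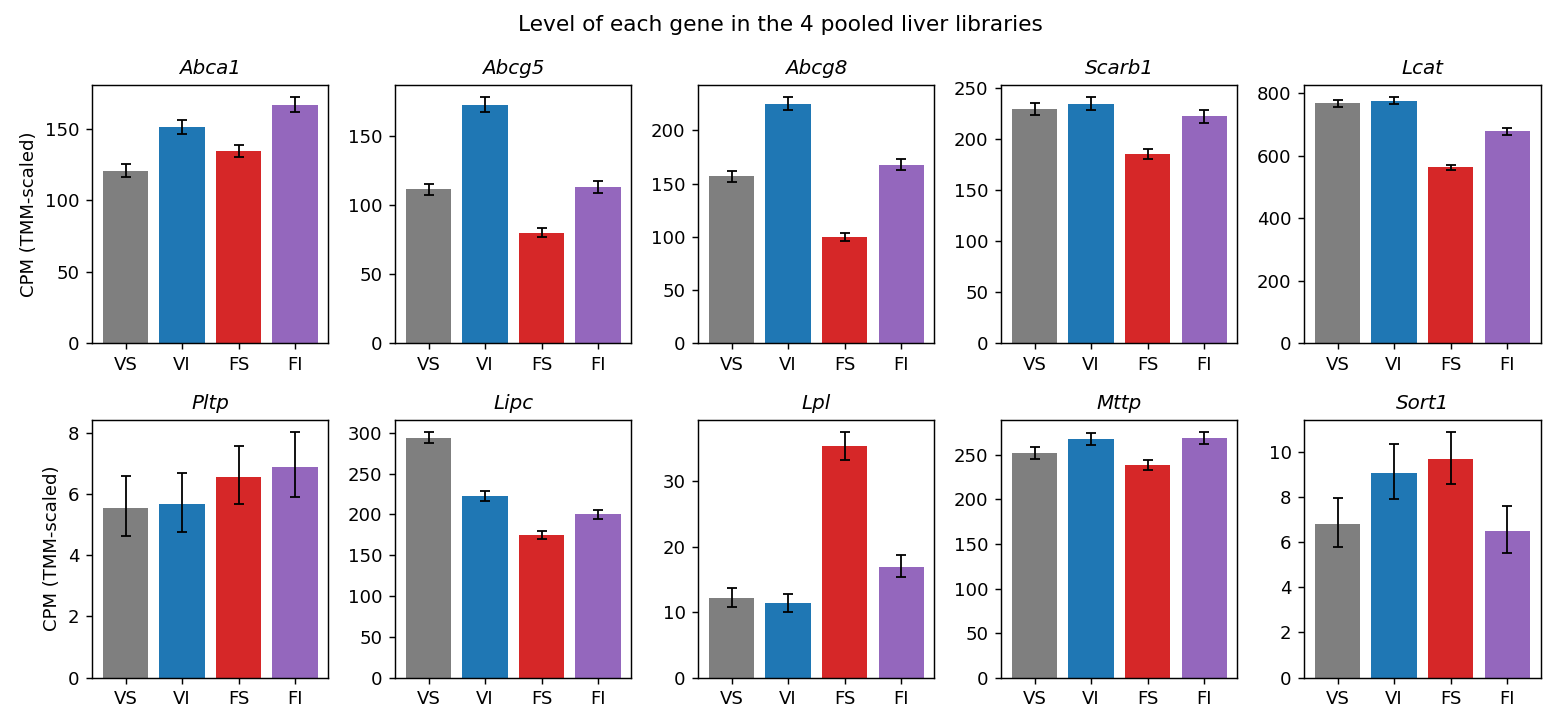
Level of each of the 10 genes in the 4 pooled libraries, in CPM after TMM scaling on a linear axis that starts at 0 and differs between panels; bars are single libraries and error bars are 95% intervals of the count, which cover counting error only. Abcg5 and Abcg8 are highest in VI and lowest in FS, and Lpl is highest in FS.

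The genes of the sterol exporter, Abcg5 and Abcg8, were higher in both exercised libraries than in their sedentary counterparts and lower in both fibril libraries than in their vehicle counterparts. Abcg5 (ENSMUSG00000040505, mm10 chromosome 17, 84658234 to 84683011, minus strand) had 111 CPM (VS), 173 (VI), 79.7 (FS) and 113 (FI). Abcg8 (ENSMUSG00000024254, chromosome 17, 84676302 to 84700333, plus strand) had 157 CPM (VS), 225 (VI), 99.6 (FS) and 168 (FI). For both genes VI was highest, FS was lowest, and FI lay close to VS.

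These genes lie head to head, and the stretch between their main start sites is shown because their levels moved together. It runs on the plus strand of GRCm38.p6 (RefSeq) at chr17:84683012-84683120, has 109 bases with a GC content of 45.9%, and holds no exon of GENCODE M21. Abcg5 starts at 84683011 to its left and Abcg8 at 84683121 to its right. The capitals mark TATAAA, the core of a TATA box, which is read here on the minus strand, with its leftmost base 31 bases left of the Abcg8 start site and 79 bases right of that of Abcg5.
Abcg5-Abcg8 stretch: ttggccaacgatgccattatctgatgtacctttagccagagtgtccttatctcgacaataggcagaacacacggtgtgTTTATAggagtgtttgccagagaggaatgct
TATAAA occurred on either strand in 13.6% of 32851 RefSeq promoter windows, each from 250 bases before to 50 after a start site. The other motifs searched on both strands were AGGTCA, TCAAGGTCA (which contains the former), TGATAA and CACGTG, found in 16.3%, 0.423%, 9.05% and 7.15% of all windows, and none of these letter strings lies in the stretch. Windows were at hand for 7 of the 10 genes, the windows at both main start sites of this pair hold the TATAAA shown, those of Abca1 and Pltp also held TATAAA, that of Abca1 held CACGTG, and 1 of the windows of Lipc held AGGTCA. A further Abcg8 transcript in GENCODE M21 starts at 84676302 inside the Abcg5 gene, so that the annotated genes overlap by 6710 bases. The sources used here do not give the strand setting of the counting, and reads from that overlap cannot be assigned to either gene with certainty.

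Per length, the transcripts of the exporter were present at similar levels. Abcg5 had 47.6 FPKM (VS), 72.9 (VI), 34.7 (FS) and 46.7 (FI), and Abcg8 had 43.1, 61.0, 27.8 and 44.6 FPKM. The ratio of Abcg5 to Abcg8 on this scale lay between 1.05 in FI and 1.25 in FS.

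The effect of IT on the exporter genes was described in vehicle and in fibril livers apart. With 1 library per group such a comparison has no test, and log2 ratios of CPM are given with 95% exact conditional binomial (Clopper-Pearson) intervals. Since reads were counted without molecular identifiers, they are not independent molecules, and these intervals cover counting error only. The log2 ratio of Abcg5 was 0.64 in VI versus VS (0.56 to 0.71) and 0.50 in FI versus FS (0.42 to 0.58). That of Abcg8 was 0.52 in VI versus VS (0.46 to 0.58) and 0.75 in FI versus FS (0.68 to 0.82). Both genes were thus higher with IT by more than counting error in each pair of libraries. With fibrils, the log2 ratio of Abcg5 was −0.48 in FS versus VS (−0.56 to −0.40) and −0.62 in FI versus VI (−0.69 to −0.55). That of Abcg8 was −0.65 in FS versus VS (−0.72 to −0.58) and −0.43 in FI versus VI (−0.49 to −0.37). The VS library serves both VI versus VS and FS versus VS, and the FI library likewise serves both of its comparisons.

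Amyloidosis stands here for the injection of fibrils, whatever the amyloid load of the liver. A test over the 4 libraries is possible only if the effects of IT and of amyloidosis are taken as additive. The 1 residual degree of freedom of that model is the interaction, and edgeR's quasi-likelihood test was applied to 11760 genes with Benjamini-Hochberg adjustment. Abcg8 rose with IT by 0.64 on the log2 scale (SE 0.12, edgeR adjusted p = 0.0438), and it was the only gene of the 10 called for IT at an adjusted p below 0.05, where 1.48% of all genes tested were called. Abcg5 had a change of 0.57 with IT (SE 0.11, edgeR adjusted p = 0.0537). With amyloidosis, Abcg5 fell by 0.55 on the log2 scale (SE 0.11, edgeR adjusted p = 0.0317) and Abcg8 also fell by 0.55 (SE 0.12, edgeR adjusted p = 0.0401). These were 2 of the 10 genes, against 4.97% of all genes tested. The adjusted p-values lie near the threshold. The model took its TMM factors from the genes tested, whereas CPM and ratios took theirs from all listed genes. With factors over all genes, as for the CPM, Abcg8 was not called for IT (edgeR adjusted p = 0.0519), nor was any other of the 10 genes. That setting of the model was chosen after seeing the data. The call of Abcg8 for IT was also lost with a filter at 5 CPM (edgeR adjusted p = 0.0714). The call of Abcg8 for amyloidosis was lost at 5 CPM (edgeR adjusted p = 0.0555), and with each factor fitted alone none of the 10 genes was called. The summed hepatocyte markers, most of which is albumin (Alb), were 133000 CPM (VS), 139500 (VI), 149000 (FS) and 155700 (FI), higher in both fibril and in both exercised libraries than in their counterparts. Of the 8 markers, 7 were higher in FS than in VS and in FI than in VI, while Ttr was lower in both. Their part in the levels of Abcg5 and Abcg8 was not tested.

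Lpl was the only gene among the 10 that differed by more than 2-fold in any of the 4 comparisons of libraries. Lpl (ENSMUSG00000015568, chromosome 8, 68880491 to 68907448, plus strand) had 287 counts (VS), 277 (VI), 1041 (FS) and 410 (FI), or 12.2, 11.4, 35.3 and 16.95 CPM. The FS library stood above the other 3, and the FI library stood above both vehicle libraries. The log2 ratio was 1.54 in FS versus VS (1.35 to 1.73), a 2.90-fold higher level, and 0.58 in FI versus VI (0.35 to 0.80). With IT the log2 ratio was −1.06 in FI versus FS (−1.23 to −0.89) and −0.096 in VI versus VS (−0.34 to 0.15), where the interval includes 0. The FI level was thus below that of FS and above that of VI. In the additive model the change of Lpl with amyloidosis was 1.06 (SE 0.23, edgeR adjusted p = 0.052), and that with IT was −0.61 (SE 0.23, edgeR adjusted p = 0.30). For amyloidosis the gene passed the threshold with DESeq2 (adjusted p = 0.00539), with limma-voom (adjusted p = 0.0173) and in edgeR without robust estimation (adjusted p = 0.0291), higher in both fibril libraries. It also passed with DESeq2 size factors (edgeR adjusted p = 0.0478) and without a filter (edgeR adjusted p = 8.33e-10). It did not pass with total counts or with TMM over all genes (edgeR adjusted p = 0.0515 in both), at 5 CPM (edgeR adjusted p = 0.0581) or with amyloidosis fitted alone (edgeR adjusted p = 0.259). Without a filter, 1519 genes were called for amyloidosis, against 585 in the main setting. The log2 ratio of Lpl with IT in fibril livers minus that in vehicle livers was −0.96 (counting interval −1.25 to −0.67). The additive model has no term for that difference, and its p-values do not measure the spread between mice.

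Lpl is also a gene of macrophages, muscle and fat. The summed Kupffer cell and macrophage markers were also higher in the fibril libraries, at 533 CPM in both FS and FI. Of the 12 markers, 6 were lower in FI than in FS. Lpl had 35.3 CPM in FS and 16.95 CPM in FI. Of these 12 markers 4 passed the test with amyloidosis, where 4.97% of all genes tested were called. They were Cd163, C1qb, C1qa and Marco, with log2 changes of 1.26 (edgeR adjusted p = 0.00365), 0.69 (edgeR adjusted p = 0.0143), 0.48 (edgeR adjusted p = 0.0443) and 0.82 (edgeR adjusted p = 0.0338). The muscle markers were highest in VS and lowest in FS and FI. Of 7 adipocyte markers, summing to between 8.47 and 10.9 CPM, Fabp4 had between 4.88 and 7.65 CPM and Cidec between 2.84 and 3.56 CPM. Adipoq was at 0 except for 0.034 CPM in FS. The part of macrophages in the level of Lpl was not tested.

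Lipc, Lcat and Scarb1, which act on HDL in plasma or at the cell surface, were lowest in FS, but none of them passed the test. Lipc (ENSMUSG00000032207, chromosome 9, 70798129 to 70934808, minus strand) had 294 CPM (VS), 223 (VI), 175 (FS) and 200.1 (FI). VS was highest by a wide margin and the exercised libraries lay between VS and FS. The log2 ratio of Lipc was −0.75 in FS versus VS (−0.80 to −0.70) and −0.15 in FI versus VI (−0.21 to −0.097), and in the additive model the change with amyloidosis was −0.46 (SE 0.16, edgeR adjusted p = 0.148). With IT, Lipc was lower in vehicle livers, with a log2 ratio of −0.40 (−0.45 to −0.35), and higher in fibril livers, with 0.19 (0.14 to 0.25). The difference between these ratios was 0.60 (0.52 to 0.67), and its additive change with IT was −0.10 (SE 0.16, edgeR adjusted p = 0.826).

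Lcat (ENSMUSG00000035237, chromosome 8, 105939551 to 105943382, minus strand), a plasma enzyme made by hepatocytes, had 769 CPM (VS), 777 (VI), 564 (FS) and 678 (FI). Its level was near equal in both vehicle libraries, and the FS library was lowest. The log2 ratios of Lcat were 0.015 in VI versus VS (−0.014 to 0.045) and 0.27 in FI versus FS (0.24 to 0.30). With fibrils they were −0.45 (−0.48 to −0.42) in sedentary and −0.20 (−0.23 to −0.17) in exercised livers. Scarb1 (ENSMUSG00000037936, chromosome 5, 125277087 to 125341094, minus strand) had 229.6 CPM (VS), 235 (VI), 185 (FS) and 222 (FI). Its highest level was in VI and its lowest in FS, as for Lcat, although on the FPKM scale Lcat had 577 in VS and 575 in VI. The centred log2 levels of these genes differed by at most 0.072 in any library, the smallest such difference among all pairs of the 10 genes. The log2 ratio of Scarb1 was −0.31 in FS versus VS (−0.37 to −0.26) and 0.26 in FI versus FS (0.21 to 0.32). In the additive model the changes with amyloidosis were −0.33 for Lcat (SE 0.14, edgeR adjusted p = 0.211) and −0.20 for Scarb1 (SE 0.12, edgeR adjusted p = 0.388), and those with IT were 0.14 (SE 0.14, edgeR adjusted p = 0.699) and 0.15 (SE 0.12, edgeR adjusted p = 0.636).

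Abca1 was higher in both exercised libraries by a like amount. Abca1 (ENSMUSG00000015243, chromosome 4, 53030787 to 53159895, minus strand) had 121 CPM (VS), 152 (VI), 135 (FS) and 167 (FI). Its log2 ratio was 0.33 in VI versus VS (0.26 to 0.40) and 0.31 in FI versus FS (0.25 to 0.37). The difference of these ratios, −0.015 (−0.11 to 0.080), was the smallest in size among the 10 genes. With fibrils the log2 ratios were 0.16 in FS versus VS (0.086 to 0.23) and 0.14 in FI versus VI (0.076 to 0.21). Abca1 did not pass the test for IT, where its change was 0.32 (SE 0.11, edgeR adjusted p = 0.244), or for amyloidosis, where it was 0.14 (SE 0.11, edgeR adjusted p = 0.506).

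Pltp (ENSMUSG00000017754, chromosome 2, 164839518 to 164857711, minus strand) was a low transcript with 131 counts (VS), 138 (VI), 194 (FS) and 167 (FI), or 5.55, 5.67, 6.57 and 6.90 CPM. Both fibril libraries were above both vehicle libraries, but no difference was detectable at this depth. The log2 ratios were 0.24 in FS versus VS (−0.083 to 0.58) and 0.28 in FI versus VI (−0.049 to 0.62). With IT they were 0.030 (−0.33 to 0.39) and 0.072 (−0.24 to 0.38). The additive changes of Pltp were 0.053 with IT (SE 0.19, edgeR adjusted p = 0.935) and 0.26 with amyloidosis (SE 0.19, edgeR adjusted p = 0.463). Pltp overlaps the opposite-strand gene Ctsa by 1515 bases, and Ctsa had between 3719 and 4207 counts, so that part of its counts is uncertain without the strand setting.

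The genes of the apolipoprotein B pathway behaved unlike each other. Mttp (ENSMUSG00000028158, chromosome 3, 138089855 to 138143388, minus strand), which loads lipid onto nascent particles, had 252 CPM (VS), 268 (VI), 238 (FS) and 269 (FI). It had the narrowest range of the 10 genes, 0.18 on the log2 scale from the lowest to the highest library. Its log2 ratios lay between −0.083 in FS versus VS and 0.18 in FI versus FS, and the additive changes were 0.13 with IT (SE 0.12, edgeR adjusted p = 0.672) and −0.044 with amyloidosis (SE 0.12, edgeR adjusted p = 0.873). Sort1 (ENSMUSG00000068747, chromosome 3, 108284091 to 108361511, plus strand) had 161 counts (VS), 221 (VI), 286 (FS) and 157 (FI), or 6.82, 9.07, 9.69 and 6.49 CPM. VI and FS were above VS, and FI was not. The log2 ratio with IT was 0.41 (0.11 to 0.71) in vehicle livers and −0.58 (−0.87 to −0.29) in fibril livers. That with fibrils was 0.51 (0.22 to 0.80) in sedentary and −0.48 (−0.79 to −0.18) in exercised livers. The direction of Sort1 thus differed between both arms, and its additive changes were −0.087 with IT (SE 0.25, edgeR adjusted p = 0.915) and 0.014 with amyloidosis (SE 0.25, edgeR adjusted p = 0.983).

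**Figure D2:**
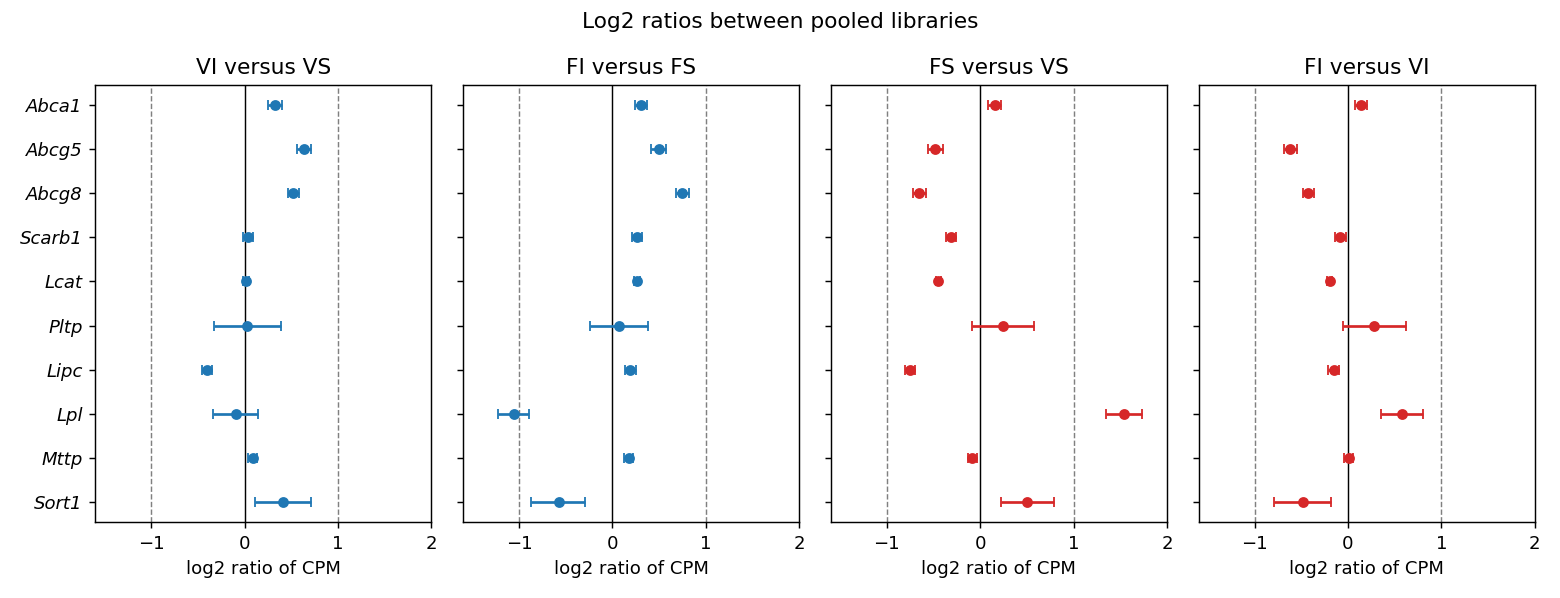
Log2 ratios of CPM for the 10 genes in 4 comparisons of pooled libraries; points are ratios, bars are 95% intervals for counting error, and dashed lines mark 2-fold. Lpl is the only gene beyond 2-fold, at 1.54 in FS versus VS and −1.06 in FI versus FS, and Sort1 changes sign between VI versus VS and FI versus FS.

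Taken by number, beyond 2-fold were 0 of the 10 genes in VI versus VS, 1 in FI versus FS (Lpl, lower), 1 in FS versus VS (Lpl, higher) and 0 in FI versus VI. Of all 12180 genes that reached 1 CPM anywhere, 3.44%, 4.28%, 5.8% and 4.54% differed by more than 2-fold in these comparisons. Beyond 1.5-fold was 1 gene in VI versus VS (Abcg5, higher), where 11.6% of all genes were. In FI versus FS there were 2 (Abcg8 higher and Lpl lower), against 13.5%. In FS versus VS there were 3 (Lpl higher, Lipc and Abcg8 lower), against 17.6%, and in FI versus VI there was 1 (Abcg5, lower), against 14%. The shares of the 10 genes thus lay near those of all genes. The median log2 ratio of the 10 genes was 0.06 in VI versus VS, 0.23 in FI versus FS, −0.20 in FS versus VS and −0.12 in FI versus VI, beside medians of 0.003, 0.002, 0.019 and 0.01 over all genes. Of the 10 genes, 8 were above 0 in either comparison with IT and 4 were above 0 in either comparison with fibrils, beside 50.7%, 50.2%, 52% and 51.3% of all genes in the order given above. In the additive model, 4 of the 10 genes had an unadjusted p below 0.05 for IT and 5 for amyloidosis, beside 14.7% and 21.4% of all genes tested by edgeR.

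**Figure D3:**
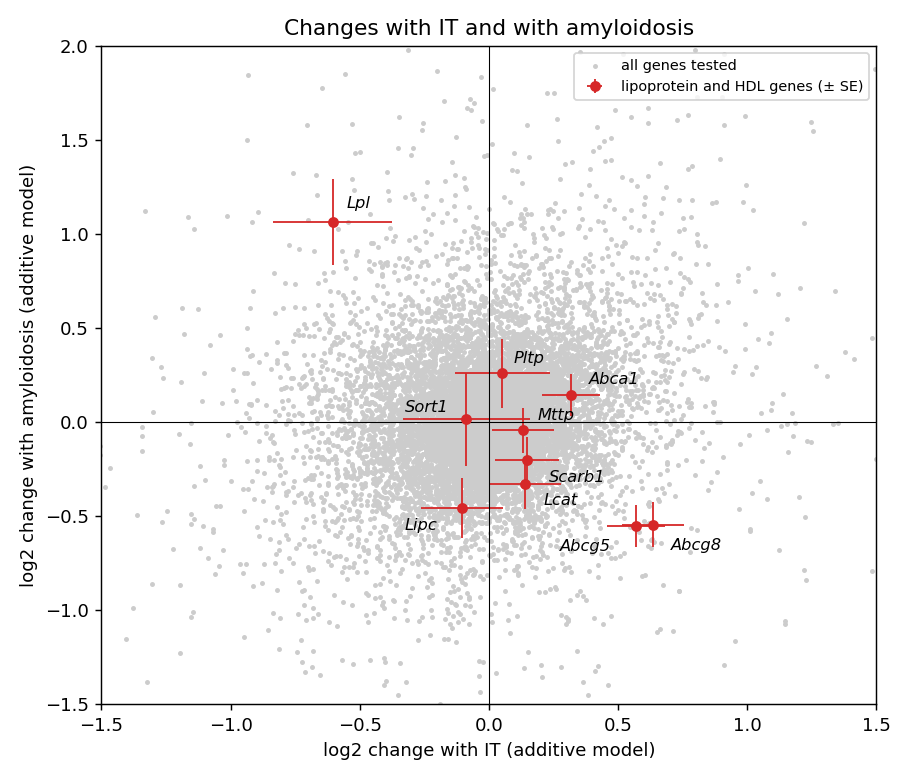
Log2 change with IT (horizontal axis) against log2 change with amyloidosis (vertical axis) in the additive model; grey points are all genes tested that lie within the axes, and red points are the 10 genes with bars of 1 SE. Abcg5 and Abcg8 lie at the lower right, higher with IT and lower with amyloidosis, and Lpl lies at the upper left.

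The change with IT was set against itself in vehicle and fibril livers, as the log2 ratio in FI versus FS minus that in VI versus VS. Over 12180 genes the median size of this difference was 0.24, and 5.82% of genes exceeded 1 in size, but none of the 10. It was largest in size for Sort1 at −0.99 (−1.40 to −0.58) and for Lpl at −0.96 (−1.25 to −0.67), followed by Lipc at 0.60. The differences of Lcat, Scarb1 and Abcg8 were 0.25 (0.21 to 0.29), 0.23 (0.15 to 0.31) and 0.23 (0.14 to 0.32). Those of Mttp, Pltp and Abcg5 were 0.090 (0.020 to 0.16), 0.041 (−0.42 to 0.50) and −0.14 (−0.24 to −0.031). These intervals are Wald intervals for counting error, and the difference has no test across mice.

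Genes with the most similar pattern were sought among 7232 genes with a mean of at least 10 CPM over the 4 libraries, by the largest difference of log2 levels, centred on their mean, in any of the 4 libraries. For Abcg5 these were Ces3b (0.043), Ahctf1 (0.086) and Apol9b (0.092), and for Abcg8 they were Ces3b (0.092), Wdr91 (0.112) and Zrsr1 (0.127). Ces3b, a liver carboxylesterase gene, had 76.4 CPM (VS), 121 (VI), 54.4 (FS) and 80.8 (FI). Abcg5 and Abcg8 differed from each other by 0.129, which placed Abcg8 at rank 7 of 7231 genes for Abcg5, and Abcg5 at rank 4 for Abcg8. For Lpl the nearest was S100a10 (0.13), the annexin A2 partner, with 12.3 CPM (VS), 11.6 (VI), 41.1 (FS) and 18.2 (FI), followed by Gskip (0.209) and Syvn1 (0.22). Syvn1, a ubiquitin ligase of the endoplasmic reticulum, had 53.3, 54.3, 166 and 96.0 CPM. With 4 libraries such likeness is a description.

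**Figure D4:**
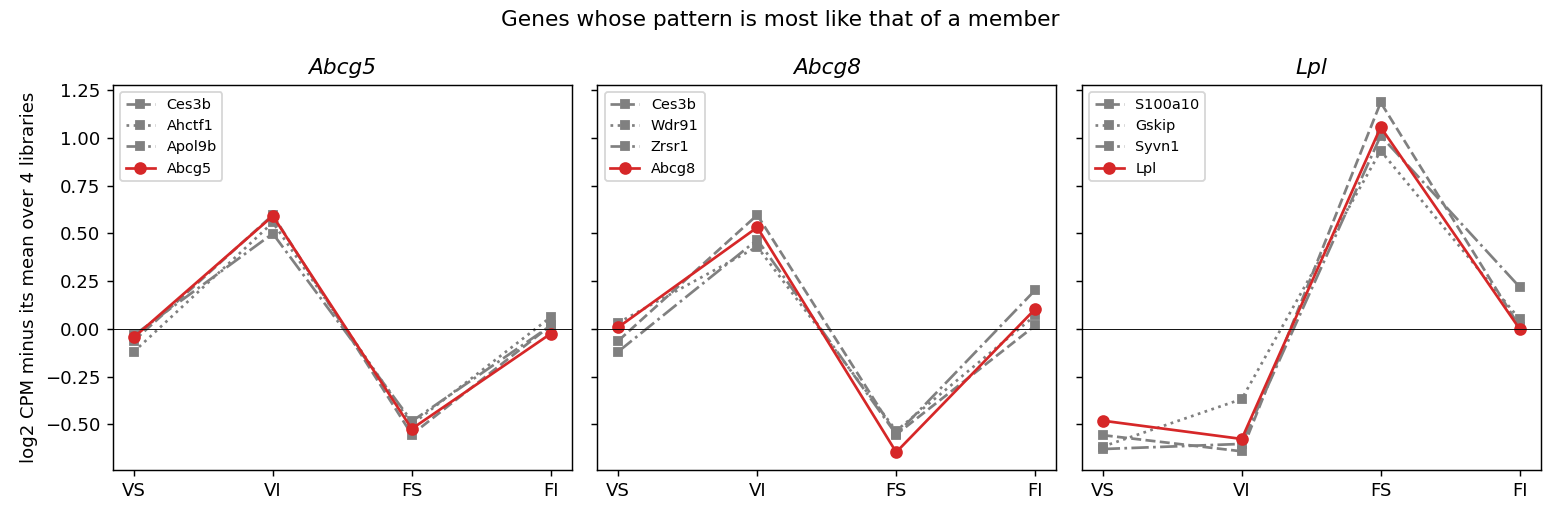
Log2 CPM minus its mean over the 4 libraries for Abcg5, Abcg8 and Lpl (red circles) and for the 3 genes most like each of them (grey squares). Ces3b is nearest to both Abcg5 and Abcg8, and S100a10 is nearest to Lpl.

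Other genes of lipoprotein metabolism were examined in 4 lists, all of whose members were tested, and only a few passed the test. Of all genes tested, edgeR called 1.48% for IT and 4.97% for amyloidosis. Among 12 partners in HDL assembly and cholesterol efflux, 0 were called for IT by edgeR, DESeq2 or limma-voom, and 0 had an unadjusted p below 0.05. With amyloidosis edgeR and DESeq2 called 1 and limma-voom called 2, adding Apoa4. Lipa, the lysosomal acid lipase, fell by 0.77 (edgeR adjusted p = 0.0097), with 218 CPM (VS), 194 (VI), 129 (FS) and 113 (FI). Its level was lower in both fibril libraries than in either vehicle library. Apoa2, the gene of the fibril protein itself, had 8482 CPM (VS), 6584 (VI), 5451 (FS) and 5627 (FI), a change with amyloidosis of −0.44 (edgeR adjusted p = 0.182). Apoa4 had 55.3 CPM (VS), 109 (VI), 163 (FS) and 155 (FI), with 1.02 (edgeR adjusted p = 0.0743), and Abca7, a further lipid exporter, had between 7.16 and 10.0 CPM. The median changes of this list were −0.02 with IT and −0.18 with amyloidosis, where all genes tested had 0.001 and 0.011.

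Among 12 regulators of lipases and further plasma lipases, 1 gene was called for either factor, beside 1.48% (IT) and 4.97% (amyloidosis) of all genes tested. Angptl8, which inhibits lipoprotein lipase after meals and was matched by its Ensembl identifier under an older symbol, had 54.0 CPM (VS), 29.9 (VI), 38.5 (FS) and 15.2 (FI). It fell by 1.09 with IT (edgeR adjusted p = 0.0128) and fell by 0.72 with amyloidosis (edgeR adjusted p = 0.0273), and both libraries of exercised mice were lower than their sedentary counterparts. Sel1l, which is needed for the maturation of lipoprotein lipase, had 83.3 CPM (VS), 86.7 (VI), 147 (FS) and 105 (FI), a change with amyloidosis of 0.54 (edgeR adjusted p = 0.0803). Gpihbp1, which anchors lipoprotein lipase to capillaries, had between 16.6 and 23.2 CPM, and Lipg, the endothelial lipase, had 19.1 CPM in VS and between 10.6 and 12.1 in the other libraries. The medians of this list were −0.082 with IT and −0.074 with amyloidosis.

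Among 10 genes of VLDL assembly and secretion 0 were called for either factor by edgeR or DESeq2, and the medians were −0.01 with IT and −0.012 with amyloidosis. At an unadjusted p below 0.05 there were 2 for IT and 4 for amyloidosis in edgeR, beside 14.7% and 21.4% of all genes tested. With limma-voom 1 was called for amyloidosis, Cideb. The smallest adjusted p for amyloidosis among those named was that of Cideb, a lipid droplet protein, at 0.0523 in edgeR, with 16.9 CPM (VS), 14.9 (VI), 11.7 (FS) and 9.18 (FI). Sar1b, of the secretory vesicle coat, had 234, 225, 139 and 190.2 CPM, P4hb, the partner subunit of MTTP, had 874, 947, 1283 and 1113 CPM, and Sec23a, also of such coats, had 51.1, 57.6, 60.3 and 78.0 CPM.

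Of the lipoprotein receptor genes, Lrp1 and Lrp5 had changes with amyloidosis of 0.30 (edgeR adjusted p = 0.251) and 0.37 (edgeR adjusted p = 0.107), and Vldlr had 24.0 CPM in VS and between 11.2 and 13.3 in the other libraries.

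Among 11 LXR receptors and LXR targets, edgeR called 1 for IT and 2 for amyloidosis, all lower. Of all genes tested, 1.48% and 4.97% were called. At an unadjusted p below 0.05 there were 2 for each factor in edgeR, beside 14.7% and 21.4% of all genes tested. Abca1, Abcg5 and Abcg8 also belong to this group by what is known of their control. Srebf1, a master regulator of lipid synthesis, had 284 CPM (VS), 174 (VI), 165 (FS) and 102 (FI). It fell by 0.70 with IT (edgeR adjusted p = 0.0291) and fell by 0.79 with amyloidosis (edgeR adjusted p = 0.00957). Lpcat3, a phospholipid remodelling enzyme, had 178, 181, 98.9 and 127 CPM and fell by 0.68 with amyloidosis (edgeR adjusted p = 0.0223). Nr1h3, the gene of LXR alpha, had between 93.6 and 117 CPM, with changes of −0.14 with IT (edgeR adjusted p = 0.681) and −0.028 with amyloidosis (edgeR adjusted p = 0.927). Cyp7a1, the rate-limiting enzyme of bile acid synthesis, had 114 CPM (VS), 112 (VI), 107 (FS) and 34.1 (FI), and the FI library alone was low. Rxra, the partner of LXR, had between 421 and 476 CPM, and Nr0b2, a repressor of bile acid synthesis, had between 65.1 and 74.8 CPM. The medians of this list were −0.092 with IT and −0.041 with amyloidosis.

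**Figure D5:**
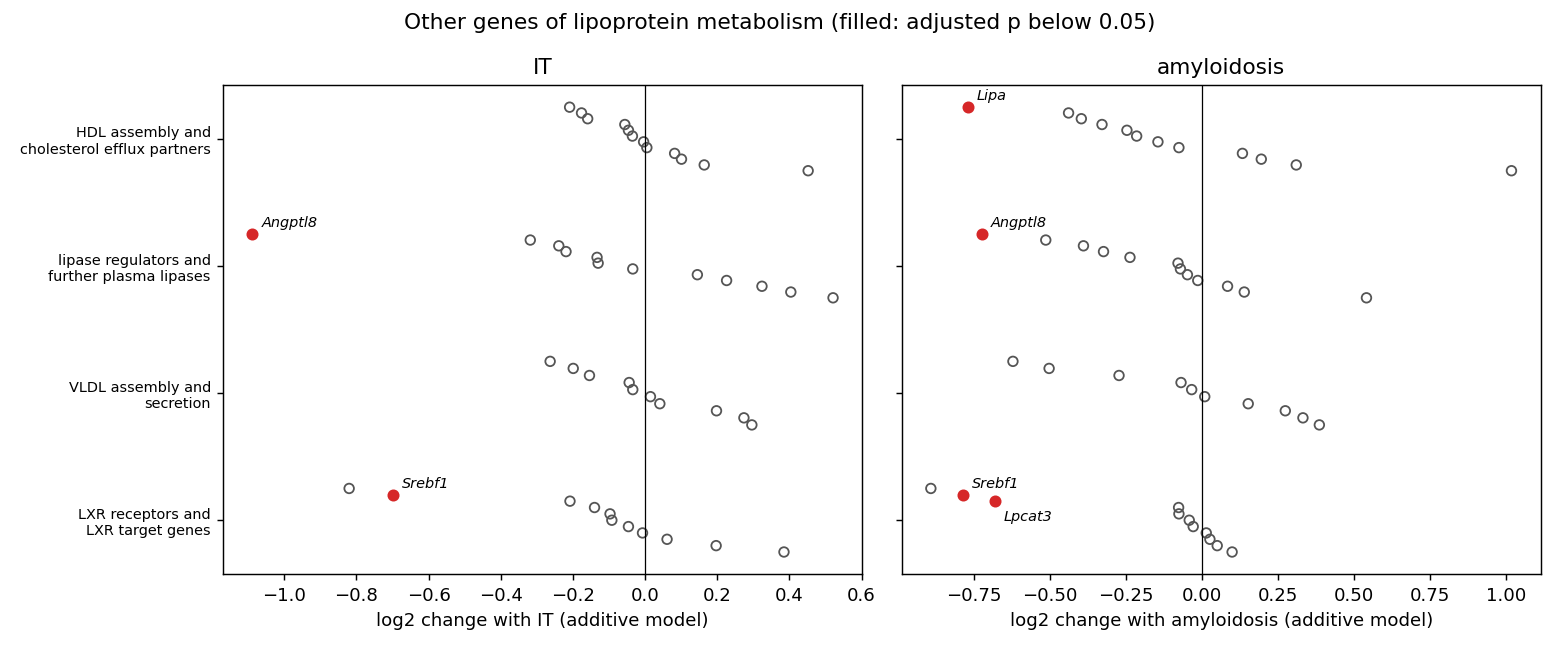
Log2 changes in the additive model for the other genes of lipoprotein metabolism in 4 lists, with IT (left) and with amyloidosis (right); each circle is a gene and filled red circles have an adjusted p below 0.05. Filled circles lie below 0 only, for Angptl8 and Srebf1 with IT and for Lipa, Angptl8, Srebf1 and Lpcat3 with amyloidosis.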

How the data were processed

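The authors homogenized liver tissue and pooled it by group, and RNA was extracted and sequenced on an Illumina platform by a service provider. The deposited table holds read counts per gene without normalization, and FPKM values that the authors derived from them: recomputed from count, gene length and total count, their ratio to the deposited FPKM was 1. The submitters' processing notes name fastp 0.23.2, STAR 2.5, HTSeq 0.6.1 and mm10, with no roles given. Total counts were between 23442935 and 28814802 per library, and intervals are widest for the transcripts with the fewest counts.

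The members and gene lists were chosen with earlier results of these data known. Counts were analysed with R 4.3.3 and edgeR 4.0.16. CPM and ratios used TMM factors computed over all listed genes. Ratios had a prior of 0.5 counts and were taken over genes that reached 1 CPM in any library. The additive model (amyloidosis and IT) used genes that reached 1 CPM in 2 or more libraries, with TMM factors computed over those genes. It used robust quasi-likelihood estimation and Benjamini-Hochberg adjustment. It was run on simulated data that held no interaction, which cannot check the assumption that the effects are additive. Named beyond the 10 genes were, by rule, the 2 highest and 2 lowest genes of each list by their change with amyloidosis, any further called gene, and the 3 genes most like each member whose log2 range exceeded 1. Nr1h3 was named after its values were seen. The list of lipoprotein receptors and their regulators is not reported here as a whole. Coordinates are those of the deposited table, and 7 of the 10 genes have the same start and end in GENCODE M21. Alternatives were DESeq2 1.42.0, limma-voom (limma 3.58.1), other scalings, filters and thresholds, FPKM with a pseudocount of 1 or 0.1, and each factor alone. Figures were drawn with matplotlib 3.10.9.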

Additional observations from a re-analysis of the deposited data

Results flagged for a closer look

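Lipc and Sort1 differed with IT in opposite directions in vehicle and fibril livers. For Lipc the log2 ratio in fibril livers minus that in vehicle livers was 0.60 (counting interval 0.52 to 0.67), with a lower level in VI than in VS and a higher level in FI than in FS. For Sort1 the same difference was −0.99 (−1.40 to −0.58), with a higher level in VI than in VS and a lower level in FI than in FS. Each arm is 1 pooled library, so the difference was not tested across mice. Among all 12180 expressed genes, 5.82% had a difference beyond 1 in size.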

How the results depend on the processing

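With 1 library per group, leaving out a library was not done: the additive model then has no residual degree of freedom, and the intervals cover counting error only. No paired analysis was possible because each group has 1 library. No direction of a called gene reversed.

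Of the 10 genes, a fold threshold of 1.5 gave 1 in VI versus VS, 2 in FI versus FS, 3 in FS versus VS and 1 in FI versus VI, and FPKM with a pseudocount of 1 gave 0 in FI versus FS, where Lpl had been beyond 2-fold. The number called for IT was 2 with limma-voom, DESeq2 size factors or total counts (Abcg5 joined), 3 with no filter, and 0 with a filter at 5 CPM, with IT fitted alone, or with TMM over all genes, which was added after seeing the data. For amyloidosis it was 0 with that factor alone, 1 at 5 CPM and 4 with no filter. Abcg8 for IT had an edgeR adjusted p between 6.15e-05 (no filter) and 0.898 (IT alone).

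Over all genes, the counts beyond 2-fold in the same order of comparisons were 4030, 4177, 4567 and 4197 with no filter, 144, 203, 353 and 229 at 5 CPM, 107, 117, 242 and 139 with FPKM plus 1, and 269 in VI versus VS with FPKM plus 0.1. Calls for IT were 276 with total counts, 82 at 5 CPM, 740 with no filter and 0 with IT alone, and for amyloidosis 1519 with no filter and 8 alone, against 174 and 585. Total counts shifted the median of all log2 ratios by at most 0.071 in size and turned the sign of Lcat in VI versus VS (0.015 to −0.005) and of Mttp in FI versus VI (0.007 to −0.019). The causes of these shifts were not tested.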
